A study of Mus musculus with 10 samples.

Results

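The interaction of mutant Npm1 and mutant Flt3 was read from 8 of the 10 libraries of the series, namely all those made from lineage-depleted bone marrow haematopoietic stem and progenitor cells (HSPC) of C57BL/6 mice. The 8 libraries fell into 4 groups of 2. The wild-type (WT) group carried no mutant allele. The Npm1c group had the genotype Npm1flox-cA/+;Mx1-Cre+, in which Cre, driven by the interferon-inducible Mx1 promoter, switches 1 Npm1 allele to its mutant form. The Flt3-ITD group had the genotype Flt3ITD/+, an internal tandem duplication in 1 Flt3 allele. The double mutant group had the genotype Npm1flox-cA/+;Flt3ITD/+;Mx1-Cre+. For every gene the interaction was the double mutant mean minus the Npm1c mean minus the Flt3-ITD mean plus the WT mean, on log2(RPKM + 0.5). RPKM are reads per kilobase of gene, scaled to library size. Of the 16771 genes listed, 9702 reached at least 1 RPKM in at least 2 of the 8 libraries and were tested. An interaction of 0 means that the double mutant change equals the sum of both single mutant changes.

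No group carried Mx1-Cre without the Npm1 allele, so effects of Cre and of mutant Npm1 cannot be told apart. Whether and when Cre was induced, age, disease stage and the number of animals per library are not given in the labels, and the series text calls the replicates biological. Cells were enriched by magnetic removal of mature lineages and not by sorting, so each library is a mixture. In WT, the progenitor markers Kit and Cd34 stood at 14.9 and 14.5 RPKM and at 15.3 and 15.7 RPKM, and Cd3e at 0.0253 and 0.0848 RPKM. In the double mutant, Kit was at 8.70 and 8.65 RPKM, Cd34 at 3.26 and 3.37 RPKM, and Cd3e at 0.425 and 0.246 RPKM. Kit was present in all 8 libraries, from 8.65 to 14.9 RPKM, while Cd34 was lowest in the double mutant.

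NPM1 is a nucleolar chaperone of ribosome assembly. Its leukaemic form has lost the nucleolar localisation signal and gained an export signal, so that it collects in the cytoplasm, and it is known for raised HOX gene expression. FLT3 is the receptor tyrosine kinase for FLT3 ligand on multipotent progenitors and dendritic cell precursors, and the internal tandem duplication makes it signal without ligand through STAT5 and the MAP kinase pathway. Both mutations are often found together in acute myeloid leukaemia, and mice that carry both develop it.

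Library denominators, recovered from the RPKM values, ran from 44.5 to 57.8 (in units of 1e6 reads). The share of those reads on listed genes was 74.4% and 74.1% in WT, 60.8% and 63.0% in Npm1c, 69.5% and 63.5% with Flt3-ITD, and 67.4% and 67.0% in the double mutant. Replicates of every group differed by more than counting noise. The median absolute log2 difference between replicates was smallest in the double mutant (0.0343) and largest in Flt3-ITD (0.137). Y-linked transcripts summed to 12.5 RPKM in Npm1c replicate 2 and 13.4 RPKM in Flt3-ITD replicate 1, and to at most 0.00813 RPKM in the other 6 libraries. The median interaction over all tested genes was 0.093 on the deposited scale. Log2 values have the median of all tested genes in the same comparison subtracted, and come with the standard error (SE) of the limma fit, with 2 libraries per group. Whether a gene passed the test (adjusted p under 0.05) refers to the deposited scale.

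The double mutant transcriptome departed from the sum of the single mutants for most expressed genes. The interaction passed the test for 6480 genes, 66.8% of those tested. It was positive for 3800 (39.2%) and negative for 2680 (27.6%). After quantile normalization the split was 2815 positive to 4727 negative, so the balance of directions depends on how the libraries are scaled. At 2-fold or more from the median gene, 1599 genes passed above it and 478 below it, and at 16-fold or more 122 and 2. Without genes that reached the minimum through the double mutant alone, the numbers were 1008 and 478 at 2-fold and 53 and 2 at 16-fold. By comparison, 60.6% of the genes passed for Npm1c against WT, 33.1% for Flt3-ITD against WT, and 82.8% for the double mutant against WT. Against Npm1c, 77.4% passed for the double mutant, and against Flt3-ITD also 77.4%. These shares were taken on the deposited scale and include an offset of the median gene. Against WT, the median change was -0.261 in Npm1c, -0.143 in Flt3-ITD and -0.338 in the double mutant. Of the tested genes, 730 reached the minimum through the double mutant alone, and 710 of these had a positive interaction that passed. Among the other 8972 genes, 3090 were positive (34.4%) and 2680 negative (29.9%). Counts within gene lists are to be read beside these shares over all genes.

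Genes that passed were sorted by direction. A synergistic rise is a positive interaction with both double mutant libraries above all other 6, and 2485 genes (25.6%) met it. A synergistic fall, with both double mutant libraries below all other 6, was met by 2625 genes (27.1%). An antagonised fall is a positive interaction of a gene whose single mutant changes sum to below 0 and that is no synergistic rise, found for 1315 genes (13.6%). An antagonised rise is the mirror image, found for 55 genes (0.567%). A gene was counted as additive if it did not pass and if the 95% interval of its interaction lay within 1.5-fold of 0 on the deposited scale. This held for 2590 genes (26.7%), and 632 genes were undetermined. The median interaction was 1.27 among synergistic rises, where the single mutant medians were -0.05 for Npm1c and 0.06 for Flt3-ITD. It was -0.65 among synergistic falls, with single mutant medians of 0.15 and 0.04. These are signed medians, and single genes moved either way in the single mutants. Relative to the median gene, both changes summed to below 0 for 1257 of the 2485 rises and 730 of the 2625 falls. Since the classes were cut from these same contrasts, the medians describe them and test nothing.

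**Figure D1:**
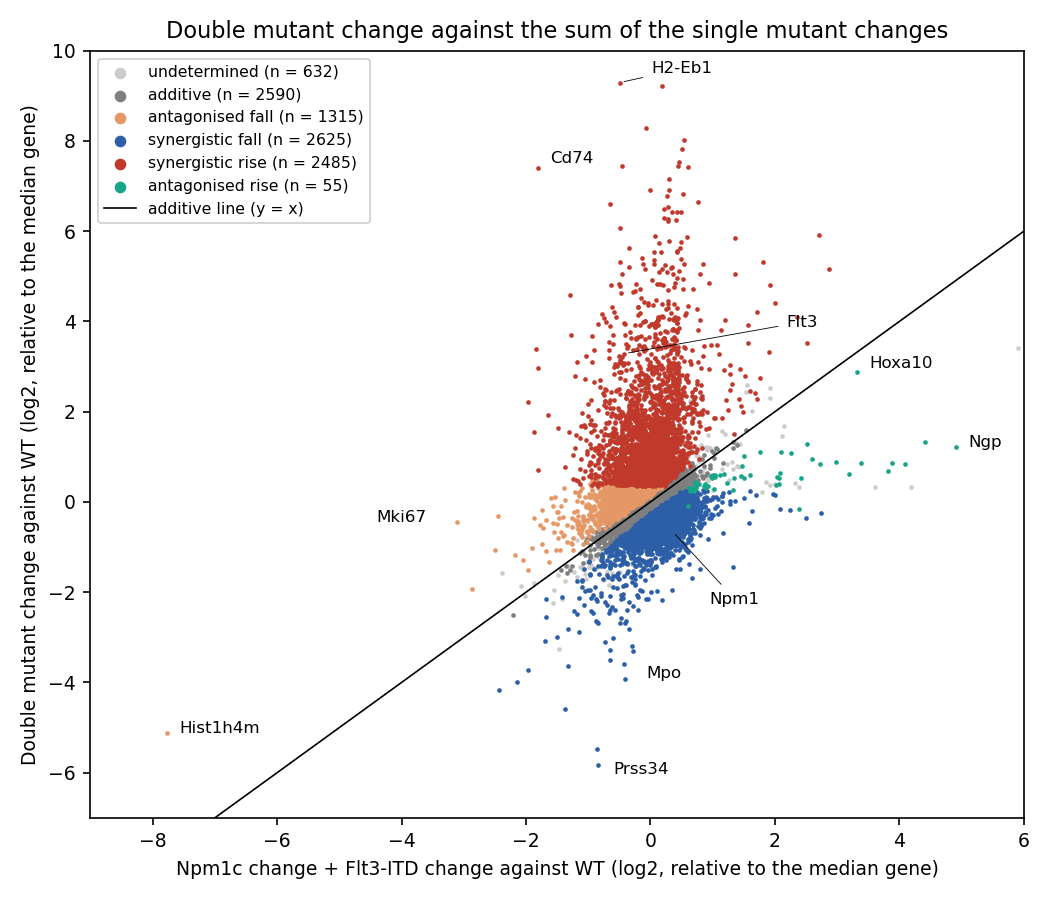
Each point is 1 of 9702 tested genes; the x axis is the sum of the Npm1c and Flt3-ITD changes against WT and the y axis the double mutant change against WT, both log2 relative to the median gene, and both share the WT libraries. The double mutant change runs from -5.83 (Prss34) to 9.30 (H2-Eb1). Genes above the line (y = x) lie above the sum of the plotted changes, and genes below it lie under that sum. Each comparison had its own median subtracted, so the line is close to but not exactly at an interaction of 0.

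Flt3 itself, the receptor that carries the duplication (chromosome 5, 147330741 to 147400489, GRCm38.p6), was a synergistic rise. It stood at 5.35 and 5.22 RPKM in WT, 3.44 and 3.35 in Npm1c, 5.12 and 3.71 with Flt3-ITD, and 44.2 and 44.3 in the double mutant. Only the double mutant libraries were above the WT range, and the interaction was 3.68 ± 0.17 (SE, adjusted p = 3.45e-06). Npm1 (chromosome 11, 33152498 to 33164142) went the other way. Its level was 289 and 284 RPKM in WT, 265 and 295 in Npm1c, 286 and 283 with Flt3-ITD, and 146 and 142 in the double mutant, an interaction of -1.03 ± 0.087 (adjusted p = 9.42e-05). Both single mutants overlapped WT. Counts per gene sum both alleles, which means that the labelled genotypes are not checked by either gene.

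The 4 largest interactions of all tested genes, those of H2-Eb1, Cd74, H2-Aa and H2-Ab1, were in antigen presentation by MHC class II, the system by which dendritic cells, macrophages and B cells display peptides to helper T cells. All 10 listed class II genes passed upward, with a median interaction of 6.13, and 8 of them reached the minimum without the double mutant. H2-Eb1, a class II beta chain (chromosome 17, 34305867 to 34316674), was at 4.30 and 3.52 RPKM in WT, 1.37 and 1.91 in Npm1c, 5.75 and 3.33 with Flt3-ITD, and 2179 and 2189 in the double mutant. The 6 other libraries lay between 1.37 and 5.75 RPKM, and the interaction was 9.76 ± 0.32 (adjusted p = 8.19e-07). H2-Aa, a class II alpha chain (chromosome 17, 34282744 to 34287823), had at most 3.86 RPKM in any of them and 1298 and 1280.0 RPKM in the double mutant (interaction 8.99 ± 0.28). Cd74, the invariant chain that escorts class II molecules, fell in both single mutants, to 4.07 and 4.30 RPKM in Npm1c and 7.24 and 5.71 with Flt3-ITD from 11.9 and 11.6 in WT. In the double mutant it reached 1647 and 1645 RPKM (interaction 9.19 ± 0.14). Ciita, the master transcriptional activator of the class II genes, was a synergistic rise as well, with 0.193 and 0.149 RPKM in WT, 0.0567 and 0.0995 in Npm1c, 0.264 and 0.186 with Flt3-ITD, and 75.7 and 75.4 in the double mutant (6.84 ± 0.11, adjusted p = 5.29e-08). The low Ciita values rested on 16 to 76 reads and the double mutant ones on 17613 and 19130. Ciita reached the minimum through the double mutant alone, so its call gives no support. In these bulk samples, more cells of a type and more RNA per cell cannot be told apart.

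Class II promoters hold a conserved Y box, bound by the factor NF-Y. In the 250 bases before the RefSeq start (GRCm38.p6), the letters CTGATTGG, searched on both strands and added after the values were seen, occurred at H2-Aa and H2-Eb1. They are shown in capitals, 5′ to 3′ on the gene's strand, since these are the class II genes with the largest interactions in which the letters were found.
H2-Aa (chr17:34287824-34288073, minus strand): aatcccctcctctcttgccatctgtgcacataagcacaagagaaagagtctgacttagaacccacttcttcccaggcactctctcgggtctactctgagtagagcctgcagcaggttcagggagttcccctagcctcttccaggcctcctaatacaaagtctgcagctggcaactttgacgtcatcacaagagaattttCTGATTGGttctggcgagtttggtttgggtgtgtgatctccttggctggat
H2-Eb1 (chr17:34305617-34305866, plus strand): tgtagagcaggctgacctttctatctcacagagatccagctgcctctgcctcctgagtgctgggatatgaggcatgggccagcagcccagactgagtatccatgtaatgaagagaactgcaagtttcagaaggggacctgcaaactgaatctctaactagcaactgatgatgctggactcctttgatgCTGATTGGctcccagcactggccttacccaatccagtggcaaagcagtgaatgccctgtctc
The letters end 43 bases before the start in H2-Aa and 54 in H2-Eb1. Over the whole 300-base windows of the table, which run 50 bases past the start, they occurred in 3 of the 7 class II genes matched (42.9%), in 6.84% of the 7424 tested genes matched and in 4.7% of the 27025 genes of the table. Among synergistic rises the share was 6.49%. A match is a description of the letters and not of binding.

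Dendritic cell genes followed. These mark the cells that sample antigen and prime T cells, and the type 1 conventional subset is known by Xcr1, Clec9a and the factors Batf3 and Irf8. Of 20 listed genes, 17 were tested and all 17 passed upward, with a median of 4.90, but 8 of these were tested through the double mutant alone. The remaining 9 passed too. The list summed to 90.4 to 91.7 RPKM in WT, 60.1 to 63.9 in Npm1c, 84.9 to 117 in Flt3-ITD and 2207 to 2223 in the double mutant. Xcr1, the chemokine receptor of cross-presenting dendritic cells (chromosome 9, 123852315 to 123862029), was at 0.272 and 0.206 RPKM in WT, 0.167 and 0.155 in Npm1c, 0.385 and 0.327 with Flt3-ITD, and 109 and 106 in the double mutant (interaction 7.05 ± 0.095). Clec9a, which senses dead cells, was between 0.430 and 1.35 RPKM in the 6 other libraries and at 51.3 and 50.2 RPKM in the double mutant (5.36 ± 0.28). Itgax, encoding CD11c, rose to 89.3 and 88.3 RPKM from at most 1.27. The integrin Itgae, encoding CD103, went to 74.4 and 74.2 RPKM from at most 0.335. Xcr1 and Itgae reached the minimum through the double mutant alone, so their calls give no support. Zbtb46, a factor shared by conventional dendritic cells, reached 10.2 and 9.90 RPKM from 2.67 to 3.78 in the 6 other libraries (1.63 ± 0.12). Cd209a, of monocyte-derived and other dendritic cells, reached 10.5 and 11.1 RPKM from at most 1.90. Siglech, which defines plasmacytoid cells, was at 0.674 and 0.728 RPKM in the double mutant and 0.207 and 0.206 in WT. Tcf4, the plasmacytoid factor, was at 0.830 and 0.833 RPKM in the double mutant against 0.692 and 0.702 RPKM in WT. Siglech and Tcf4 were below the minimum and were not tested.

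Genes of dendritic cell activation, which mature dendritic cells use to reach and stimulate T cells, passed upward in 14 of 14, but 13 of the 14 were tested through the double mutant alone, so the count gives no support. Ccr7, the receptor that leads dendritic cells to lymph nodes, was at 0.301 to 0.756 RPKM in the 6 other libraries and at 69.4 and 67.9 RPKM in the double mutant. Cd86, a costimulatory ligand, was at 0.0473 to 0.181 RPKM and then at 31.0 and 30.3 RPKM. Cd83, a marker of maturation, rose to 79.6 and 74.7 RPKM, with an interaction of 6.89 ± 0.15. The interleukin 12 subunit Il12b rested on 1 to 34 reads outside the double mutant and on 1158 and 1272 reads in it. Ccr7, Cd86, Cd83 and Il12b were all tested through the double mutant alone. Toll-like receptors of the endosome were high in the double mutant too. Tlr3, which senses double-stranded RNA, was at 39.3 and 37.2 RPKM in the double mutant and at most 0.104 RPKM elsewhere. Tlr11, a profilin sensor of mouse dendritic cells, was at 36.0 and 35.4 RPKM against at most 0.0823 RPKM. In that list 11 of 12 passed upward. Of the 12, 10, among them Tlr3 and Tlr11, were tested through the double mutant alone, and the other 2 passed.

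**Figure D2:**
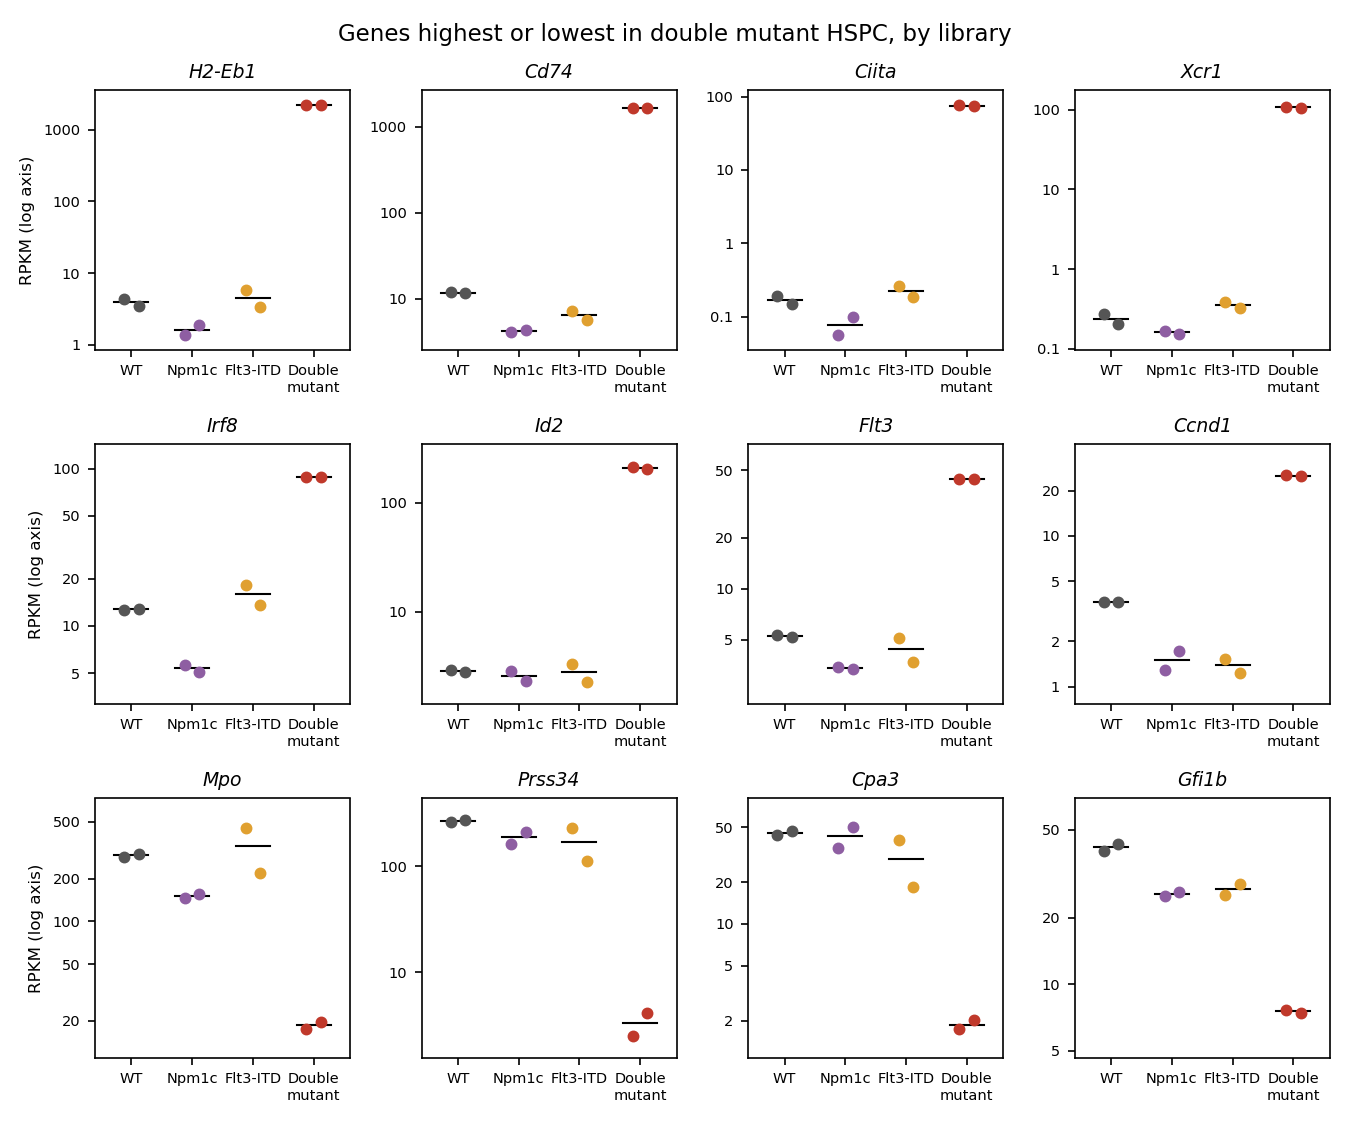
RPKM in each of the 8 libraries (points, log axis, scaled per panel) with the group mean (line) for 8 genes that rose and 4 that fell in the double mutant. Both double mutant libraries of every panel lie outside the range of the other 6, as in H2-Eb1 (2179 and 2189 RPKM) and Prss34 (2.49 and 4.14 RPKM).

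Monocyte, macrophage and phagocyte genes also gained. Of 20 tested monocyte and macrophage genes, 18 passed upward and 1 downward (median 2.69), and 9 upward and 1 downward among the 11 that did not depend on the double mutant for the minimum. Mpeg1, a pore-forming protein of phagocytes, was at 22.5 and 20.7 RPKM in WT, 10.5 and 8.54 in Npm1c, 28.9 and 24.0 with Flt3-ITD, and 580.4 and 578 in the double mutant (5.48 ± 0.17). The macrophage complement gene C1qa rose to 18.0 and 17.5 RPKM from at most 0.680, and Adgre1, encoding F4/80, to 5.61 and 5.50 RPKM from at most 1.07. C1qa and Adgre1 reached the minimum through the double mutant alone, so their calls give no support. Csf1r, the macrophage growth factor receptor, behaved otherwise: it was at 8.99 and 8.96 RPKM in WT, 3.56 and 3.6 in Npm1c, 11.7 and 7.61 with Flt3-ITD and 8.0 and 8.07 in the double mutant. It fell in Npm1c (adjusted p = 0.00162) and was not called in the double mutant against WT (adjusted p = 0.422), an antagonised fall of 0.90 ± 0.24 (adjusted p = 0.00790). All 6 tested subunits of the phagocyte NADPH oxidase, which makes superoxide, passed upward (median 2.04), with Cyba going from 40.9 and 43.9 RPKM in WT to 162 and 158. Among lysosomal protease genes 10 of 13 passed upward and 1 downward (median 2.05; 9 and 1 of the 12 that did not depend on the double mutant). Ctss, the protease that trims the invariant chain, was at 13.7 and 13.6 RPKM in WT, 5.47 and 5.83 in Npm1c, 14.8 and 10.2 with Flt3-ITD, and 145 and 143 in the double mutant. Actin cytoskeleton genes passed upward in 18 of 20 (median 2.27; 17 of 19 that did not depend on the double mutant for the minimum), including Lsp1, a leukocyte actin-binding protein, at 55.2 and 55.1 RPKM against at most 2.43 RPKM elsewhere.

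The other gene groups that gained were regulators and signalling genes. Of 17 tested myeloid transcription factors, 11 passed upward and 2 downward, or 8 and 2 among the 14 that did not depend on the double mutant. Irf8, which specifies type 1 dendritic cells and monocytes (chromosome 8, 120736358 to 120756694), was at 12.7 and 12.8 RPKM in WT, 5.62 and 5.11 in Npm1c, 18.3 and 13.5 with Flt3-ITD, and 89.0 and 89.0 in the double mutant. It fell in Npm1c (adjusted p = 8.56e-04) and stood 3.55 ± 0.18 above the sum in the double mutant (adjusted p = 4.90e-06). Spi1, encoding PU.1, had the same order, with 8.17 and 9.12, 3.64 and 4.02, 12 and 6.93, and 30.3 and 29.9 RPKM (2.65 ± 0.30). Id2, an inhibitor of helix-loop-helix factors, was at 2.29 to 3.31 RPKM in the 6 other libraries and at 214 and 205 RPKM in the double mutant. Batf3 was at most 0.0393 RPKM outside the double mutant, on 0 to 8 reads, and at 6.57 and 6.37 RPKM in it. It reached the minimum through the double mutant alone, so its call gives no support.

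The letters GAGGAAGT, a PU.1 site, were searched on both strands of the same promoter windows, as were TTCNNNGAA for STAT factors, TTGCNNAA for C/EBP factors and TGATTNAT for HOX with PBX. GAGGAAGT occurred in 4.08% of the 7424 tested genes matched, 6.86% of the 1910 synergistic rises matched and 2.91% of the 1959 synergistic falls matched. Among the synergistic rises of at least 16-fold it occurred in 16 of 86 matched (18.6%), which include the near-identical neighbours Bcl2a1a, Bcl2a1b and Bcl2a1d. Over all genes of the table its share was 3.69%. Of the 2485 synergistic rises, 709 reached the minimum through the double mutant alone, among them these 3 neighbours and Tlr11. Without such genes, 53 of the 122 rises of at least 16-fold remained. Shares of the letters were not taken without them, so the higher shares among rises give no support. TTCNNNGAA had the same order with smaller gaps, at 8.19% of tested genes, 8.85% of synergistic rises and 7.66% of synergistic falls, with 9.55% over the table. TTGCNNAA was in 9.75%, 10.5% and 9.09%, with 12.2% over the table, and TGATTNAT in 1.39%, 1.57% and 1.43%, with 3.74% over the table. Among the 86 matched rises of at least 16-fold, TTGCNNAA occurred in 13 (15.1%), TTCNNNGAA in 6 (6.98%) and TGATTNAT in 1 (1.16%). The shares carry no test, and the members of each class were chosen by their expression. Promoters of Bcl2a1d and Tlr11, which rose, and of Mpo, which fell, are shown with GAGGAAGT in capitals, since the letters occur in genes of either direction.
Bcl2a1d (chr9:88731851-88732100, minus strand): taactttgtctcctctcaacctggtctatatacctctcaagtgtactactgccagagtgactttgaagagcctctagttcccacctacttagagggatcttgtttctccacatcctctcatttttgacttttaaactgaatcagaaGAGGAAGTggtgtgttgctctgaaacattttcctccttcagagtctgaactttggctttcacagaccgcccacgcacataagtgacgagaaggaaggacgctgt
Tlr11 (chr14:50357664-50357913, plus strand): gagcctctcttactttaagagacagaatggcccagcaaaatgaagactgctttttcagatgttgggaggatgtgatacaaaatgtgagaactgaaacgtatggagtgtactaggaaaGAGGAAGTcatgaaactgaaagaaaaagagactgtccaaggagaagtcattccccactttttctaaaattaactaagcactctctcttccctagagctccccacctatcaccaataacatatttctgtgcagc
Mpo (chr11:87793534-87793783, plus strand): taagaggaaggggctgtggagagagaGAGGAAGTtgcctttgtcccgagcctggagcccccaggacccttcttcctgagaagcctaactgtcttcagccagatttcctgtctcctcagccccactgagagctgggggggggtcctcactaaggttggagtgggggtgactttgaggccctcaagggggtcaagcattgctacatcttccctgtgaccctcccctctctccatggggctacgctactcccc
The match ends 96, 125 and 216 bases before the start, in that order.

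Genes downstream of the receptor did not move as 1 block. In the list of STAT5 and cytokine feedback genes, 13 of 19 passed upward and 2 downward (median 0.72), or 6 and 2 among the 12 that did not depend on the double mutant. Pim1, a STAT5-induced kinase, was at 15.5 and 15.4 RPKM in WT, 9.89 and 8.0 in Npm1c, 17.2 and 17.1 with Flt3-ITD, and 58.6 and 55.8 in the double mutant (2.38 ± 0.13, adjusted p = 6.20e-06). Socs2, a feedback inhibitor, was low in WT (0.0474 and 0.0340 RPKM) and Npm1c (0.0533 and 0.0385 RPKM), higher in Flt3-ITD (1.07 and 0.568 RPKM) and highest in the double mutant (1.82 and 1.77 RPKM). Socs2 reached the minimum through the double mutant alone, so its call gives no support. Its interaction of 0.72 ± 0.23 did not pass without either double mutant library, Npm1c replicate 2 or WT replicate 1. Of 12 tested MAPK feedback genes, 5 passed upward and 3 downward (median -0.15), with 6 downward after quantile normalization. The counts of 5 and 3 are near the shares over all tested genes, 39.2% upward and 27.6% downward. Ccnd1, the cyclin that drives entry into the cell cycle (chromosome 7, 144929931 to 144939831), fell in each single mutant and rose in the double mutant: 3.65 and 3.66 RPKM in WT, 1.29 and 1.71 in Npm1c, 1.53 and 1.23 with Flt3-ITD, and 25.3 and 25 in the double mutant (4.74 ± 0.16). Dusp5, a phosphatase that shuts off ERK, was at 1.24 and 1.34, 1.06 and 0.980, 3.08 and 2.24, and 15.6 and 15.2 RPKM in the same order. Immediate early genes, which growth factor signals induce within minutes, passed upward in 16 of 17 (median 3.17), or 12 of the 13 that did not depend on the double mutant for the minimum. Fos was at 1.82 to 4.16 RPKM outside the double mutant and at 60.8 and 59.4 RPKM in it, and Nr4a1 at 0.128 to 0.198 RPKM and then at 10.2 and 9.66 RPKM. Nr4a1 reached the minimum through the double mutant alone, so its call gives no support.

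Receptors for cytokines passed upward in 19 of 24 and downward in 4 (median 1.34; 18 and 4 of 23 that did not depend on the double mutant for the minimum). Csf2rb, the shared chain of the receptors for interleukin 3, interleukin 5 and GM-CSF, was at 11.6 and 12.1 RPKM in WT, 4.74 and 4.93 in Npm1c, 14.3 and 7.27 with Flt3-ITD, and 36.4 and 36.0 in the double mutant (2.89 ± 0.36). Il1rl1, the interleukin 33 receptor of mast cells and basophils, fell to 1.62 and 1.66 RPKM from 6.10 and 6.26 in WT. Interferon response genes passed upward in 27 of 28 (median 1.58), 22 of them among the 23 that did not depend on the double mutant. Irf7 was at 1.45 and 1.43, 0.930 and 0.722, 1.77 and 1.73, and 13.6 and 13.4 RPKM in the 4 groups, and Stat2 at 2.58 and 2.59, 1.76 and 1.86, 2.00 and 1.91, and 10.1 and 10.5 RPKM. The Mx1 promoter of the Cre transgene is itself interferon-inducible and is in Npm1c and the double mutant. The list summed to 98.7 to 100 RPKM in WT, 63.5 to 73.0 in Npm1c, 115 to 136 in Flt3-ITD and 444 to 445 in the double mutant.

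Genes of the BCL2 family, which has survival and death members, passed upward in 14 of 15 (median 0.82). Without those tested through the double mutant alone it was 9 of 10. After quantile normalization 8 of 15 passed upward. Bcl2a1d, a pro-survival member, was at most 0.301 RPKM in the 6 other libraries and at 86.6 and 84.7 RPKM in the double mutant, though reads of Bcl2a1a, Bcl2a1b and Bcl2a1d could be shared between these near-identical copies. Mcl1, a short-lived survival protein, was at 33.6 to 41.5 RPKM in the 6 others and at 106 and 104 RPKM in the double mutant (1.52 ± 0.092). Pmaip1, the pro-death member Noxa and a p53 target, moved the same way, to 39.8 and 39.4 RPKM from at most 0.896. Bcl2a1d and Pmaip1 reached the minimum through the double mutant alone, so their calls give no support. Adhesion and homing genes passed upward in 12 of 17 and downward in 1 (median 1.45; 11 and 1 of 16 that did not depend on the double mutant for the minimum), led by Cd52, a leukocyte surface glycoprotein, at 216 and 219.7 RPKM against at most 17.5 RPKM elsewhere. Glycolysis genes (9 upward and 3 downward of 18, median 0.19, or 7 and 3 of the 16 that did not depend on the double mutant), DNA methylation enzymes (3 and 1 of 8, median 0.19) and Menin-MLL and Polycomb genes (6 and 6 of 21, median -0.03) were mixed. After quantile normalization 12 of the Menin-MLL and Polycomb genes passed downward, and with the Y-linked term 6 DNA methylation enzymes passed upward. In the DNA methylation list, Tet2 was at 1.56 and 1.54 RPKM in WT, 0.854 and 0.908 in Npm1c, 1.40 and 1.02 with Flt3-ITD, and 2.84 and 2.73 in the double mutant (1.43 ± 0.14).

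**Figure D3:**
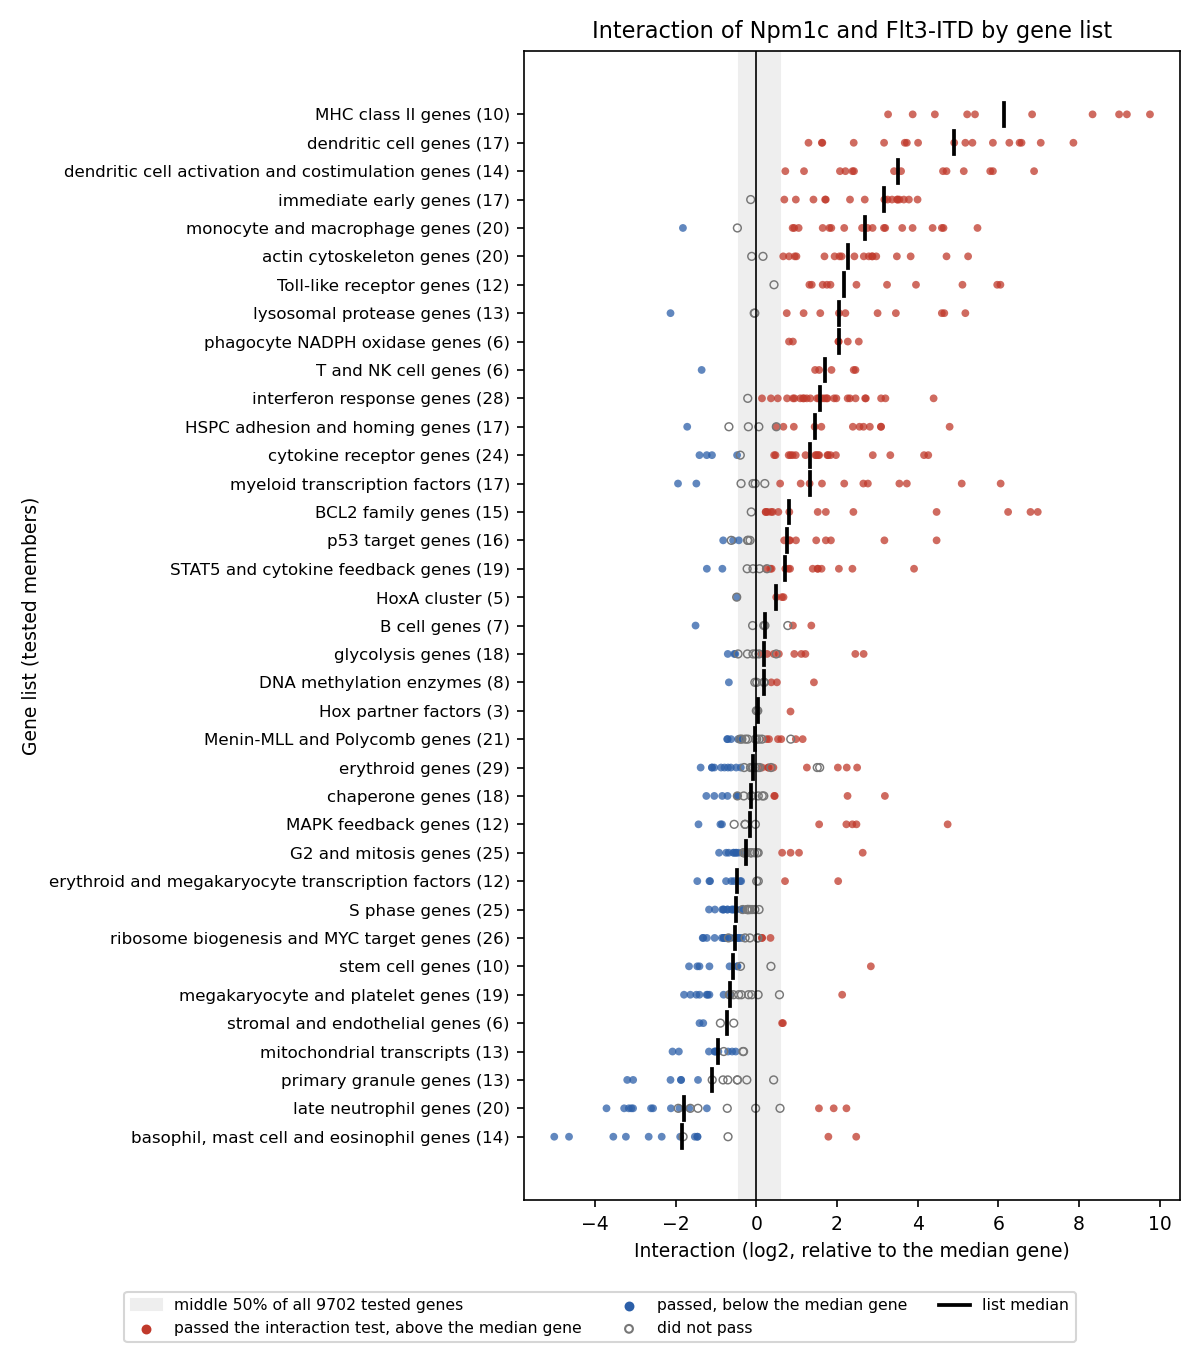
Interaction (log2, relative to the median gene, x axis) of each tested member of 37 gene lists, ordered by list median (black bar), with members that passed filled and others open; the grey band holds the middle 50% of all 9702 tested genes. MHC class II genes (median 6.13) and dendritic cell genes (4.90) head the order, and basophil, mast cell and eosinophil genes (-1.85) and late neutrophil genes (-1.79) close it.

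Synergistic falls were led by basophil and mast cell genes. Of 14 tested members of the basophil, mast cell and eosinophil list, 10 passed downward and 2 upward, with a median of -1.85, and 1 of the risers was tested through the double mutant alone. Prss34, a basophil protease (chromosome 17, 25298394 to 25300168), was at 261 and 273 RPKM in WT, 164 and 213 in Npm1c, 228 and 113 with Flt3-ITD, and 2.49 and 4.14 in the double mutant. Its mean was 80.5 times lower in the double mutant than in WT and the interaction -5.01 ± 0.48 (adjusted p = 1.22e-04). Mcpt8, another basophil protease, fell from 142 and 148 RPKM in WT to 1.67 and 2.6 RPKM, and Cpa3, the mast cell carboxypeptidase, from 43.7 and 46.8 to 1.73 and 2.02 RPKM. In the single mutants Cpa3 was at 35.4 and 50.2 RPKM in Npm1c and 40.0 and 18.6 RPKM in Flt3-ITD. Ccr3, the eosinophil chemokine receptor, went the other way, to 1.98 and 2.04 RPKM from at most 0.243. It was the riser tested through the double mutant alone, so its call gives no support.

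Primary granule genes, which promyelocytes express, passed downward in 6 of 13 and upward in none (median -1.09). Over all tested genes 27.6% passed downward. Mpo, encoding myeloperoxidase (chromosome 11, 87793784 to 87804412), was at 285 and 297 RPKM in WT, 146 and 157 in Npm1c, 457 and 219.8 with Flt3-ITD, and 17.6 and 19.7 in the double mutant (-3.20 ± 0.41, adjusted p = 5.23e-04). Elane, neutrophil elastase, was at 384 and 399, 245 and 213, 689 and 252, and 31.4 and 30.1 RPKM in the same order. The Flt3-ITD libraries were far apart for both, with replicate 1, which held Y-linked transcripts, the higher. Without Flt3-ITD replicate 1 the interaction of Elane was -2.24 on the deposited scale and without replicate 2 it was -3.69. When a term for the libraries with Y-linked transcripts was added after seeing the data, 4 primary granule genes passed downward and 1 upward, and in the basophil list 7 downward and 2 upward.

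Stem and progenitor genes lay below the sum as well. Of 10 tested stem cell genes, 7 passed downward and 1 upward (median -0.57). Cd34 went from 15.3 and 15.7 RPKM in WT, 7.95 and 8.98 in Npm1c and 25.8 and 15.3 with Flt3-ITD to 3.26 and 3.37 in the double mutant (-1.67 ± 0.30). The value of Kit, the stem cell factor receptor, was smaller, at -0.48 ± 0.11 (adjusted p = 0.0152). It did not pass with the Y-linked term, without either double mutant library or without WT replicate 2. Ly6a, encoding Sca-1, was the member that rose, to 5.16 and 5.09 RPKM from 1.88 and 1.95 in WT and at most 1.03 in the single mutants (2.84 ± 0.16).

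Erythroid and megakaryocyte regulators moved with them, 8 of 12 downward and 2 upward (median -0.48). Gfi1b, a repressor needed for both lineages, was at 40.1 and 43.2 RPKM in WT, 25 and 26 in Npm1c, 25.3 and 28.5 with Flt3-ITD, and 7.63 and 7.43 in the double mutant (-1.16 ± 0.10). Klf1, the globin gene activator, was at 118 to 149 RPKM in the 6 others and at 53.2 and 50.2 RPKM in the double mutant. Platelet genes passed downward in 9 of 19 and upward in 1 (median -0.65), with Gp5 at 14.6 to 24.4 RPKM and then at 3.98 and 4.22 RPKM. Erythroid genes were mixed, 10 downward and 8 upward of 29 (median -0.09), with 4 upward after quantile normalization. The shares over all tested genes were 27.6% downward and 39.2% upward. The enzyme Car2 fell to 262 and 261 RPKM from 689.8 and 713 in WT, while the globin Hba-a1 was at 326 and 317 RPKM against 175 and 189 in WT. Few markers of lymphoid and stromal cells reached the minimum: 7 of 18 B cell genes (2 upward and 1 downward), 6 of 18 T and NK cell genes in the tables (5 upward and 1 downward, 4 tested through the double mutant alone) and 6 of 20 stromal and endothelial genes (2 and 2) were tested. One of the T cell genes, Cd8a, at 2.5 and 2.41 RPKM in the double mutant, is also expressed by type 1 dendritic cells. Cd8a was tested through the double mutant alone. Stromal Col1a1 fell from 5.65 and 5.91 RPKM in WT to 0.0573 and 0.12 RPKM. The part of each cell type in the results was not tested.

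Genes of growth and division had more negative than positive calls. S phase genes passed downward in 15 of 25 and upward in none (median -0.51), G2 and mitosis genes downward in 9 and upward in 4 of 25 (median -0.25), against 27.6% negative over all genes. Ribosome biogenesis and MYC target genes passed downward in 18 and upward in 3 of 26 (median -0.54). Rrm1, a ribonucleotide reductase subunit, was at 195 and 191 RPKM in WT, 138 and 148 in Npm1c, 165 and 165 with Flt3-ITD, and 73.8 and 73.6 in the double mutant (-0.82 ± 0.073). Myc itself was at 6.55 and 6.62, 8.52 and 8.01, 7.95 and 6.75, and 3.92 and 3.90 RPKM, lowest in the double mutant (-1.23 ± 0.11, adjusted p = 1.19e-04). Polr1b, a subunit of RNA polymerase I, was at 13.6 to 17.2 RPKM in the 6 others and at 6.03 and 5.95 RPKM in the double mutant. Under the 3 other scalings and within 10 bins of transcript GC content, 18 to 23 S phase genes, 14 to 20 G2 and mitosis genes and 20 or 21 ribosome biogenesis genes passed downward. With the Y-linked term the counts were 14, 9 and 17, with 4 ribosome biogenesis genes upward.

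Antagonised rises were few, and the largest were genes of maturing neutrophils, among them secondary and tertiary granule genes. Of 20 tested late neutrophil genes, 11 passed downward, 10 of them as antagonised rises, and 3 upward, 1 of these tested through the double mutant alone (median -1.79). Ngp, a neutrophil granule protein (chromosome 9, 110419808 to 110423012), was at 13.5 and 11.1 RPKM in WT, 23.8 and 106 in Npm1c, 75.1 and 70.0 with Flt3-ITD, and 24.0 and 22.2 in the double mutant (-3.72 ± 0.82, adjusted p = 0.00659). S100a8, a subunit of calprotectin, was at 19.0 and 14.4, 22.5 and 96.8, 70.0 and 60.6, and 23.0 and 19.5 RPKM. Both Flt3-ITD libraries lay above both double mutant ones for Ngp and S100a8. Npm1c replicate 2, which held Y-linked transcripts, was far above replicate 1, and replicate 1 was close to the double mutant. Without Npm1c replicate 2, Ngp had an interaction of -2.56 (adjusted p = 1.33e-04) on the deposited scale and S100a8 of -2.03 (adjusted p = 0.00122). With the Y-linked term the list had 5 genes downward and 4 upward, Ngp kept its call (adjusted p = 0.0256) and S100a8 did not pass (adjusted p = 0.0525). Ltf, lactoferrin, did not pass without either double mutant library or WT replicate 2. Anxa1 and Il1b, also in the list, rose synergistically, Anxa1 to 39.2 and 40.3 RPKM from at most 13.7. Il1b was the gene tested through the double mutant alone, so its call gives no support.

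The HoxA cluster, known to be raised by mutant NPM1, was higher in Npm1c and the double mutant. The files list 10 cluster genes, of which 5 were tested. Hoxa9 was at 0.965 and 1.02 RPKM in WT, 4.28 and 4.18 in Npm1c, 1.29 and 0.874 with Flt3-ITD, and 3.36 and 3.22 in the double mutant, and its interaction of -0.49 ± 0.16 did not pass (adjusted p = 0.0686), though it passed under 8 of 21 alternatives. Hoxa10 (chromosome 6, 52231197 to 52240854) was at 0.129 and 0.126, 4.91 and 4.05, 0.0945 and 0.109, and 3.16 and 3.11 RPKM. It was an antagonised rise of -0.48 ± 0.12 (adjusted p = 0.0244) that was lost at a pseudocount of 0.1 and without either double mutant or either WT library. Hoxa7 went the other way, with 0.634 and 0.641, 1.34 and 1.35, 0.876 and 0.515, and 2.63 and 2.89 RPKM (0.67 ± 0.19, adjusted p = 0.00894). Hoxa5 (0.63 ± 0.25, adjusted p = 0.0353) and Hoxa6 (0.49 ± 0.20, adjusted p = 0.0352) were called upward too, but did not pass without either double mutant library, Flt3-ITD replicate 2, Npm1c replicate 2 or WT replicate 2, nor, for Hoxa5, without WT replicate 1 and, for Hoxa6, without Npm1c replicate 1. Hoxa5 reached the minimum through the double mutant alone, so its call gives no support. Hoxa2, Hoxa3, Hoxa4 and Hoxa11 stayed under 0.5 RPKM in every library and were not tested. Meis1, a partner factor of HOX proteins, was below the minimum, at 0.590 to 0.939 RPKM in all 8 libraries.

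Mitochondrially encoded transcripts, which encode subunits of the respiratory chain and ATP synthase, lay below the sum. Of 13, 10 passed downward, 5 as synergistic falls and 5 as antagonised rises (median -0.94). Their sum was 6121 to 6416 RPKM in WT, 8596 to 9768 in Npm1c, 6859 to 8075 in Flt3-ITD and 7443 to 7555 in the double mutant. For mt-Nd1, a subunit of complex I, the levels were 1111 and 1152, 1769 and 1483, 1233 and 1415, and 908 and 879 RPKM (-1.18 ± 0.14). For mt-Atp8, a subunit of ATP synthase, they were 13.6 and 15.2, 29.9 and 34.6, 22.6 and 31.8, and 14.5 and 18.5 RPKM (-1.92 ± 0.25). It rose in Npm1c (adjusted p = 0.00252) and Flt3-ITD (adjusted p = 0.0126), and the double mutant was not called against WT (adjusted p = 0.362).

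**Figure D4:**
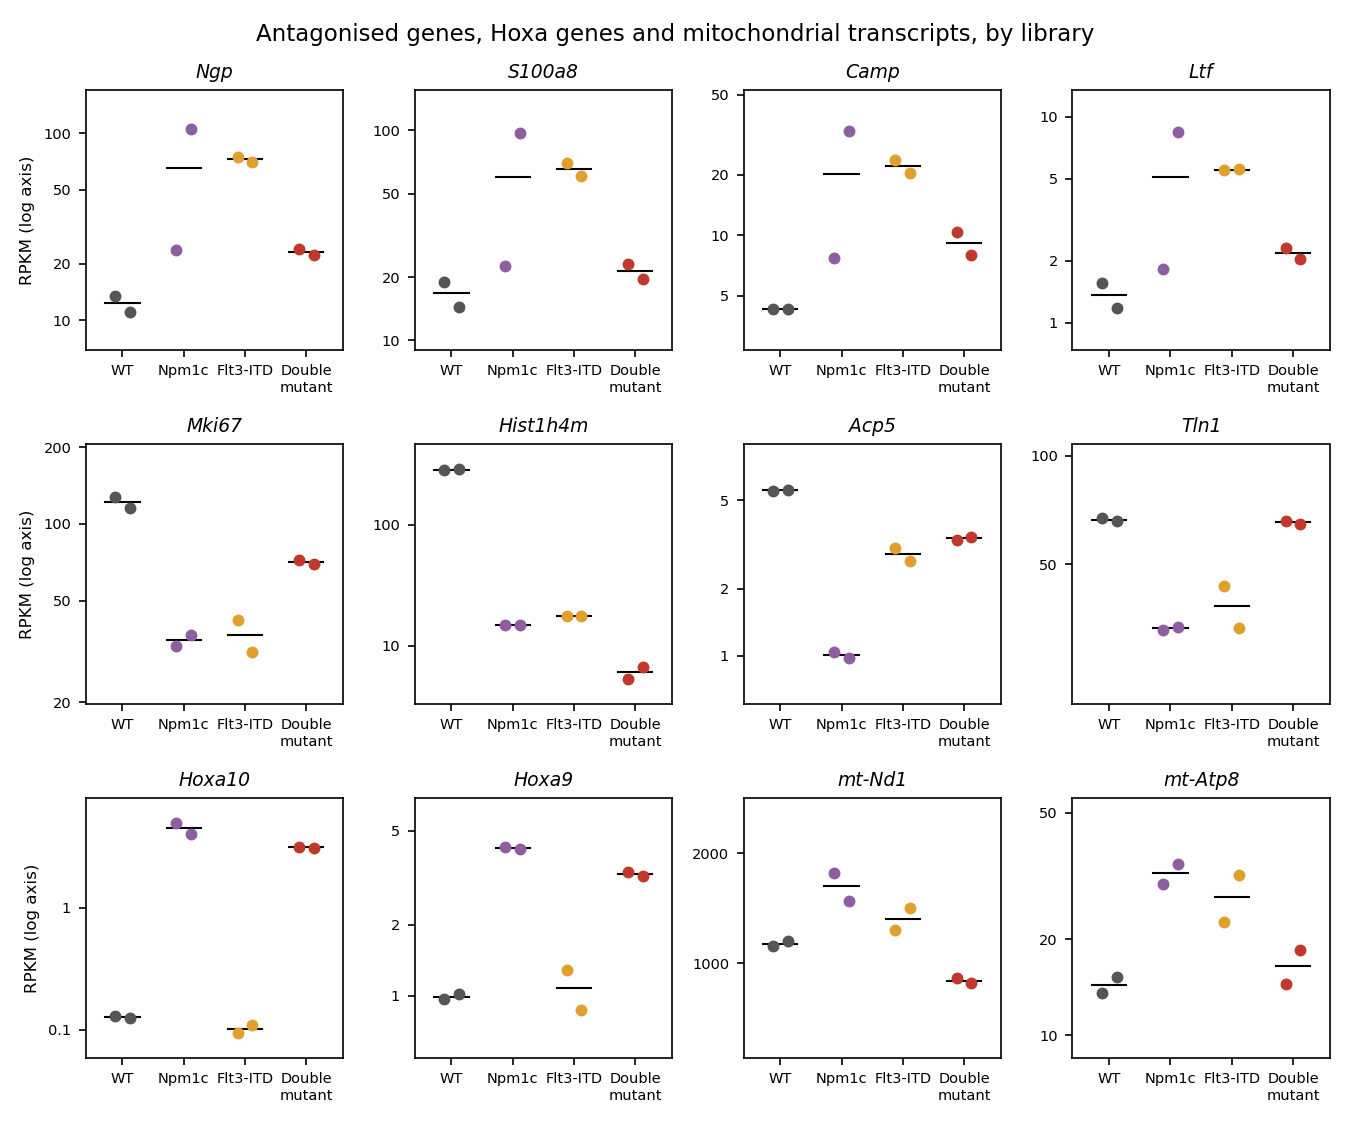
RPKM in each of the 8 libraries (points, log axis, scaled per panel) with the group mean (line). Ngp, S100a8, Camp and Ltf have Npm1c replicate 2 far above replicate 1 (Ngp, 106 against 23.8 RPKM); Mki67 and Tln1 are lowest in the single mutants, and Hoxa9 and Hoxa10 are high in Npm1c and in the double mutant.

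Antagonised falls were many and small, with a median interaction of 0.40. The largest was Mki67, the proliferation marker Ki-67 (chromosome 7, 135689784 to 135716450), at 128 and 116 RPKM in WT, 33.4 and 36.8 in Npm1c, 42.0 and 31.6 with Flt3-ITD, and 72.1 and 69.7 in the double mutant (2.64 ± 0.18, adjusted p = 2.05e-05). The double mutant lay between the single mutants and WT without overlap. Tln1, talin, which links integrins to actin, was at 67.2 and 65.7, 32.7 and 33.5, 43.4 and 33.1, and 65.9 and 64.8 RPKM (1.68 ± 0.16). Tcof1, the nucleolar factor treacle, was at 5.72 and 5.67, 2.37 and 2.66, 3.16 and 2.23, and 4.74 and 4.75 RPKM. Hist1h4m, an H4 histone gene, differs from these: it fell from 281 and 286 RPKM to 14.9 and 14.8 in Npm1c, 17.7 and 17.7 with Flt3-ITD and 5.33 and 6.74 in the double mutant, so that the double mutant fell furthest but by less than the sum. Another histone gene, Hist1h2ap, stood at 5.03 and 4.82 RPKM in WT, 10.1 and 10.1 in Npm1c, 14.6 and 12.5 with Flt3-ITD, and 2.43 and 4.03 in the double mutant. Reads of near-identical histone genes could be shared.

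The size of the antagonised classes depended on the scaling more than that of the synergistic ones. With each library divided by its median ratio to the gene means, antagonised falls numbered 448 in place of 1315 and antagonised rises 454 in place of 55. Synergistic rises were then 3100 and synergistic falls 3066. Interactions also differed by transcript GC content. The median interaction was -0.29 in the bin of genes with the lowest transcript GC, out of 10 bins, (18.1% to 41.2%) and 0.23 in the highest (57.4% to 74.7%). Antagonised falls had a median GC of 52.3% and synergistic falls of 46.7%, against 49.3% over the 9373 genes with a value. Centring the changes within GC bins, an alternative added after seeing the data, left 374 antagonised falls and 386 antagonised rises. The part of GC content in the classes was not tested further.

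**Figure D5:**
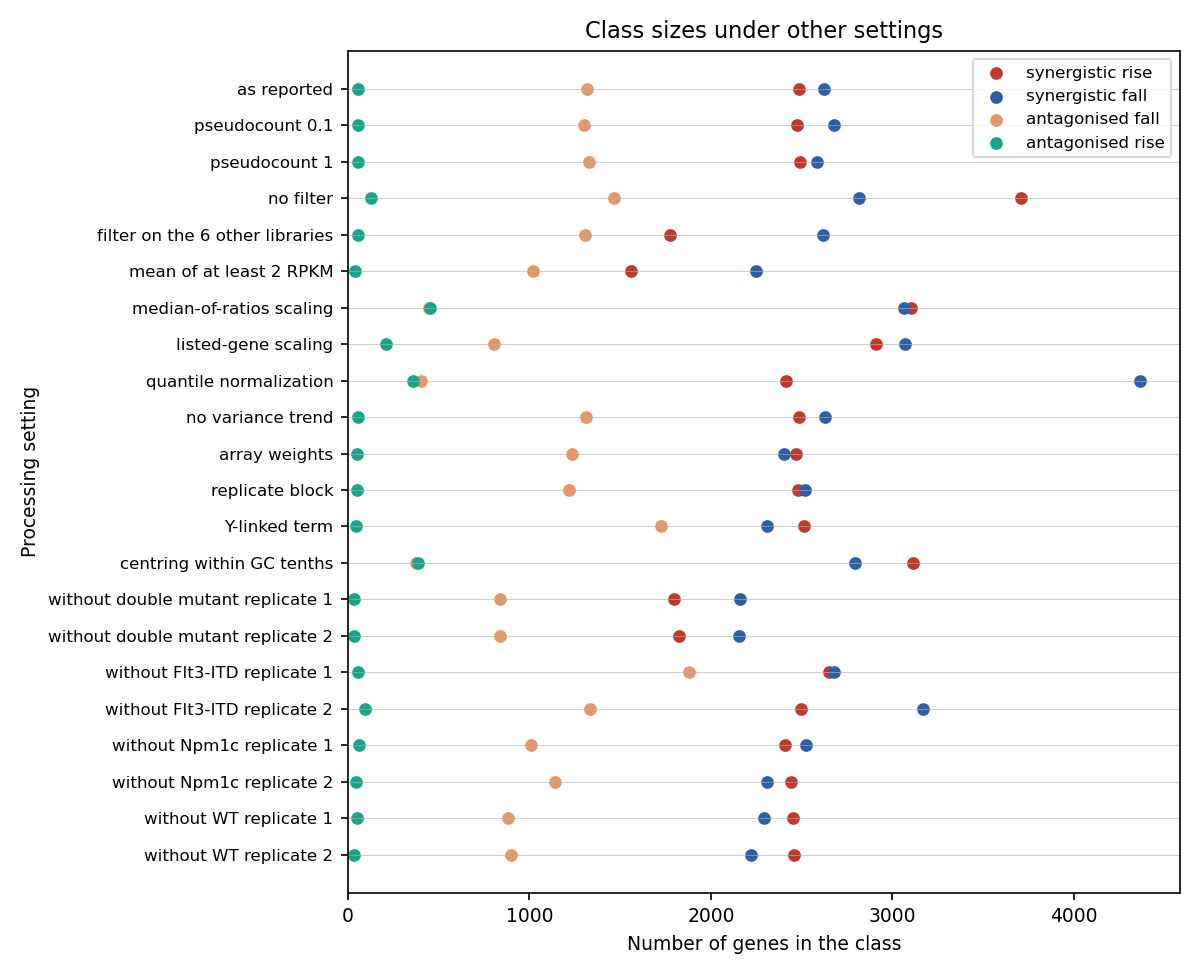
Number of genes in each class (x axis) as reported and under each of 21 other settings (y axis). Synergistic classes keep at least 1562 genes throughout, while antagonised falls (orange) run from 374 to 1878 and antagonised rises (green) from 32 to 454.

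Additive genes included few large effects. Of the 2590, 27 passed for the double mutant against WT with a change of at least 2-fold. Phyhip, which binds phytanoyl-CoA hydroxylase, was at 8.93 and 9.0 RPKM in WT, 1.52 and 1.85 in Npm1c, 6.35 and 6.09 with Flt3-ITD, and 0.748 and 0.894 in the double mutant. Its change was -1.86 in Npm1c, -0.35 in Flt3-ITD and -2.51 in the double mutant, with a 95% interval of the interaction from -0.62 to -0.02. Thbs1, the platelet adhesion protein thrombospondin, was at 42.7 and 43.3, 20.6 and 13.8, 29.8 and 30.3, and 11.6 and 11.5 RPKM (interval -0.63 to 0.40). Both intervals have the median interaction of 0.093 subtracted, while the 1.5-fold rule for additive genes was applied on the deposited scale. Of the 2590 additive genes, 704 were also additive after quantile normalization. All 8 additive genes named for the largest double mutant changes were falls, among them Fahd1, Cd248, Slc35d3, Lrrn3, Cldn13 and Ptgs1. They were ranked on the deposited scale, where the median gene changed by -0.338, and this offset favours falls in the ranking. On RPKM itself, where additivity means a sum of levels and not of log levels, 26 of the genes that passed (0.401%) had the opposite sign, all of them synergistic falls.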

How the data were processed

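RNA was measured in 8 lineage-depleted bone marrow libraries, 2 per genotype. Per the labels' protocols, ribosomal RNA was depleted and libraries were directional. The submitters' processing notes name STAR 2.4.0 and HTSeq and the build mm10, and the authors deposited RPKM per gene. How reads were assigned to genes was not given in the sources used here. Read totals of 44.5 to 57.8 (in units of 1e6) per library were recovered from the steps of the RPKM values and used to state depth only.

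Genes reaching 1 RPKM in 2 or more libraries were fitted on log2(RPKM + 0.5) with limma 3.58.1 (R 4.3.3), 4 group means and a variance trend. Adjusted p-values are Benjamini-Hochberg over the 9702 genes tested, two-sided. A fold on this scale understates changes of low genes. The code was tested on simulated data. The labels do not say whether the replicates are separate animals, so p-values measure the spread between these samples.

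Members and lists were chosen with earlier results of these data known. Named genes were Npm1, Flt3 and the HoxA cluster, the 12 largest interactions of each synergistic class and 8 of each other class with at least 2 RPKM in the highest group mean, and up to 3 called members per list. Other list members, such as Irf8, Clec9a, Kit, Cd34, Myc, Fos and Csf1r, were named after their values were seen. Alternatives were pseudocounts, filters, scalings, array weights, a replicate block and each library left out. A Y-linked term and centring within 10 GC bins were added after seeing the data. Same-numbered replicates deviated with correlations from -0.12 to 0.03, so the numbers were not treated as pairs. Promoter letters come from RefSeq (GRCm38.p6), where 7424 of the tested genes matched by symbol. Results for some genes are not reported here.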

Additional observations from a re-analysis of the deposited data

Results flagged for a closer look

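The Flt3-ITD effect was called in opposite directions in the WT and Npm1c backgrounds for 858 genes, of which 789 fell on WT and rose on Npm1c and 69 did the reverse. The Npm1c effect was called in opposite directions in the WT and Flt3-ITD backgrounds for 1866 genes, with 1732 falling on WT and rising on Flt3-ITD. Both counts use the deposited scale, on which the median gene had an offset. Its Flt3-ITD effect was -0.143 on WT and -0.09 on Npm1c. Its Npm1c effect was -0.261 on WT and -0.18 on Flt3-ITD. These genes were picked out because the effect of 1 mutation differed between backgrounds. The same held for the following genes by the interaction test of limma. Ccnd1 had an interaction of 4.74, Mki67 of 2.64, Hist1h2ap of -3.0 and Hist2h3c2 of -2.89. Their causes were not tested.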

How the results depend on the processing

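Of 3511 values of 174 named genes under the alternatives, 3437 kept direction and side of the threshold, 66 no longer passed, 8 newly passed and 0 reversed. The class sizes moved more. Antagonised falls (1315) numbered 448 with median-of-ratios scaling, 806 with listed-gene scaling, 401 after quantile normalization and 374 with centring within GC bins, and 838 to 1878 when 1 library was left out. Antagonised rises (55) numbered 129 without a filter, 454, 210 and 359 under the 3 scalings in that order, 386 within GC bins, and 32 to 95 when 1 library was left out. Quantile normalization gave 4727 negative interactions (62.7% of those that passed, against 41.4%) and 4366 synergistic falls. A mean of at least 2 RPKM left 1562 synergistic rises, and no filter gave 7217 additive genes. The causes were not tested, apart from the number of genes that each filter admits. With a replicate block, 3699 interactions were positive and 2574 negative, and same-numbered samples shared only a number. With 2 libraries per group, replicates differed most in Flt3-ITD (median absolute log2 difference 0.137).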
